A study of Caenorhabditis elegans with 16 samples.

Results

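The comparison described here is the effect of repeated blue light pulses on worms that had been fed all-trans retinal (ATR). It sets the 4 libraries labelled light_plusATR against the 4 labelled dark_plusATR, 8 of the 16 libraries of the series. The libraries were assigned to the 2 groups by their treatment labels. All worms carried an integrated transgene that expresses the channelrhodopsin variant ChR2(C128S;H134R) with a FLAG tag from the myo-3 promoter, which is active in body wall muscle, followed by the unc-54 3′ UTR. They were grown at 18 °C on the bacterium OP50, with 0.1 mM ATR from the first larval stage in both groups, and were used as young adult hermaphrodites. The light_plusATR worms received pulses of 455 nm light of 5 s, each followed by 20 min of darkness, over 8 h, while the dark_plusATR worms stayed in the dark. The other 8 libraries, light_minusATR and dark_minusATR, come from the same strain without ATR and enter here only to show where the effect of light differs without the cofactor. Each library is poly(A) RNA of a whole population of worms, and the study describes 4 biological replicates per group. Animals whose vulva had ruptured during the light pulses were washed away before RNA was made, so the light_plusATR libraries describe the survivors of that step.

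Channelrhodopsin is a light-gated cation channel from a green alga that opens only when it holds retinal, which worms do not make in useful amounts and have to be fed. The C128S exchange slows the closing of the channel, so that a short pulse leaves it open, and the muscle cell depolarized and contracted, long after the light is off. In the worm, depolarized body wall muscle takes up calcium through voltage-gated channels, and myosin thick filaments pull on actin thin filaments that are anchored to the cell membrane at dense bodies and M-lines. Myosin folding depends on the chaperone UNC-45, which works with HSP-90, and on ubiquitin ligases that remove misfolded protein. Since only muscle carries the channel, changes in other tissues of the whole animal are read in the same libraries, and in bulk RNA fewer cells of a type and less RNA per cell cannot be told apart.

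The light_plusATR libraries held between 21266999 and 25416073 gene counts (median 25003428) and the dark_plusATR libraries between 25804736 and 32374032 (median 29927779), with no batch named in the labels. The added ERCC spike-in RNA took 0.802% ± 0.063 of all counts in light_plusATR and 0.758% ± 0.032 in dark_plusATR (SD, n = 4 each), a difference of 0.0442 percentage points that was within the spread (two-sided exact permutation test, p = 0.2571). By Euclidean distance of log2 CPM, the nearest neighbour of each light_plusATR library was another light_plusATR library, whereas dark_plusATR libraries 1 and 2 lay nearest to light_minusATR libraries. Markers of muscle, intestine, neurons, hypodermis, germline and sperm were all present in both groups. Of the marker lists, 25 of 25 intestine, 35 of 37 neuron, 30 of 32 hypodermis, 51 of 51 germline and 90 of 102 sperm genes passed the filter on low counts.

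Light changed the transcriptome of worms that had ATR broadly, but mostly by small amounts. Of 15044 genes tested, 2431 were higher in light_plusATR (16.16%) and 1738 were lower (11.55%) at an adjusted p under 0.05. Those that rose did so by a median of 0.655 on the log2 scale, and 317 of them by more than 1. Those that fell had a median of -0.217, and 6.62% of them fell below -1. Among non-overlapping genes of at least 1 mean log2 CPM, the largest rises included those of ugt-18, the aspartic protease gene asp-12 and the enoyl-CoA hydratase gene ech-9, and the largest fall was in the acyl-CoA dehydrogenase gene acdh-2. Calls come from edgeR's quasi-likelihood F test on all 16 libraries with Benjamini-Hochberg adjustment over all genes. The 4 light_plusATR libraries did not overlap with the 4 dark_plusATR libraries, in log2 CPM, for 4329 genes (28.78%). The balance of called rises and falls depends on scaling. With library totals the median over all genes was 0.09 instead of 0.01, and 3374 genes were called higher and 716 lower. With ERCC counts as the scale the numbers were 1677 and 635, but the median over all genes stayed at 0.01. ERCC scaling sets 1 factor per library, so medians of the gene lists described below follow that of all genes and are no separate check. For the unfolded protein response of the endoplasmic reticulum the medians were -0.137 in the main fit and -0.136 under ERCC scaling. The falls called in that list numbered 13 and 3.

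Rises and falls sat at different expression levels. The genes that rose had a median of 2.54 log2 CPM and those that fell of 5.96, against 3.5 for all genes tested. Split by level, the lowest decile of genes stood at a median of 0.243 (log2) and the highest decile at -0.089. With each of the 8 libraries left out in turn, the first lay between 0.208 and 0.271 and the second between -0.104 and -0.086. The 48 ERCC spike-ins with a mean of at least 10 counts, put on the same scale, had medians of -0.033, 0.015 and -0.019 in their lower, middle and upper terciles by level, so the gradient of the worm genes was not seen in the spike-ins. A gradient in the same direction, of 0.137 for the lowest and -0.017 for the highest decile, was present between light_minusATR and dark_minusATR. By exon length the medians ran from 0.08 in the shortest decile to -0.01 in the longest.

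**Figure D1:**
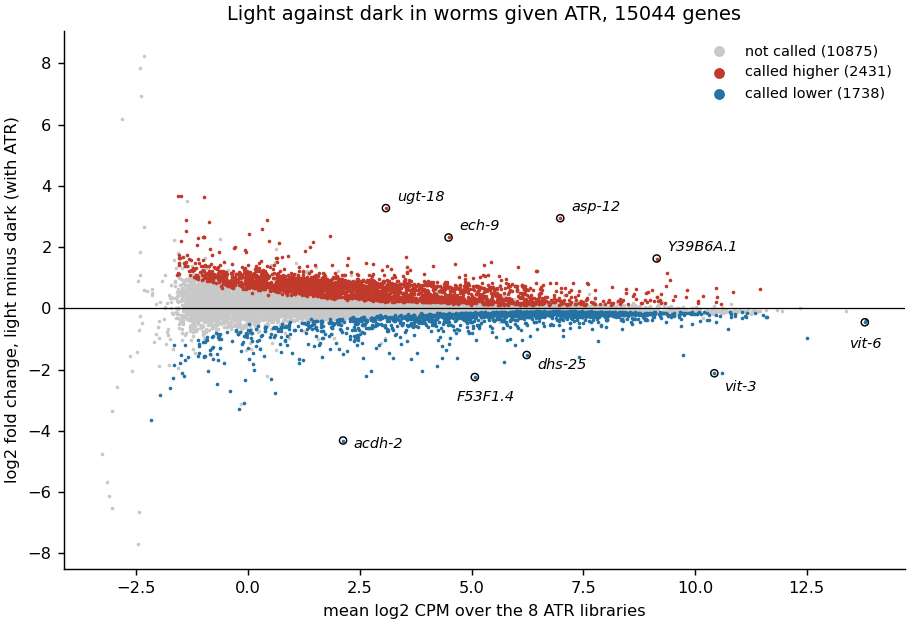
Log2 fold change of light_plusATR against dark_plusATR (y axis) by mean log2 CPM over the 8 libraries (x axis) for 15044 genes. Red points are the 2431 genes called higher, blue points the 1738 called lower and grey points the rest. Red points lie mostly left of the blue ones, at medians of 2.54 and 5.96 log2 CPM.

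The gene with the largest rise at that level, ugt-18 (WBGene00013900, chromosome V from 12820260 to 12822778 of the build WBcel235), encodes a UDP-glucuronosyltransferase, an enzyme class that conjugates sugars to small molecules. It was measured at 22.9, 28.2, 26.5 and 26.8 CPM (counts scaled to a fixed total per library after TMM) in light_plusATR replicates 1 to 4 and at 2.21, 2.87, 2.72 and 2.98 CPM in dark_plusATR. Every lit library was above every dark one, which the choice of these genes required. The log2 fold change was 3.27 (SE 0.27, adjusted p = 1.36e-06, where SE is the standard error). In the 8 libraries without ATR ugt-18 stayed within 2.05–6.49 CPM. The aspartic protease gene asp-12 (WBGene00017678, chromosome V from 8269210 to 8272056) stood far higher in absolute level. Its lit libraries read 302, 373, 371 and 364 CPM and its dark libraries 49.3, 44.15, 48.8 and 40.8 CPM, a log2 fold change of 2.94 (SE 0.15, adjusted p = 2.08e-08). The groups were far apart although light_plusATR replicate 1 was below the other lit libraries. For ech-9 (WBGene00001158, chromosome IV from 10233310 to 10235329), an enoyl-CoA hydratase gene of fatty acid breakdown, light_plusATR libraries held 39.95, 53.7, 53.1 and 54.96 CPM and dark_plusATR libraries 7.2, 11.9, 9.44 and 12.08 CPM. The log2 fold change was 2.31 (SE 0.20, adjusted p = 3.11e-06). The arginine kinase gene argk-1 (WBGene00009706, chromosome V from 16103894 to 16105952), whose product stores high-energy phosphate, rose from 5.65, 7.08, 5.96 and 7.22 CPM in the dark to 20.3, 20.2, 17.97 and 24.8 CPM in the light. This amounted to 1.69 on the log2 scale (SE 0.13, adjusted p = 8.81e-09).

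The other large rises were spread over gene families and levels. The uncharacterised gene Y39B6A.1 (WBGene00012664, chromosome V from 19201016 to 19203607) was the most abundant of them, at 1037, 1173, 951 and 855 CPM in the light and 263, 335, 414 and 287 CPM in the dark (log2 fold change 1.63, SE 0.20, adjusted p = 8.45e-05). The C-type lectin gene clec-70 rose by 2.38, from 1.32–2.03 to 6.39–9.44 CPM, and B0024.4 by 1.65, from 2.01–3.15 to 6.85–10.3 CPM. F53A9.8 rose by 1.4996 (22.3–29.2 against 67.7–76.6 CPM), the F-box gene fbxa-24 by 1.45 (13.1–18.9 against 36.7–51.3 CPM) and C10C5.5 by 1.48 (2.99–4.69 against 7.65–16.09 CPM). Genes were taken for these largest changes only if their lit and dark libraries did not overlap. A chemoreceptor-like gene, srr-6, and kreg-1 had large but uneven rises. In light_plusATR, srr-6 was at 4.55, 3.22, 7.97 and 9.22 CPM and in dark_plusATR at 1.19, 1.02, 2.66 and 0.68 CPM, with a log2 fold change of 2.15 (SE 0.45, adjusted p = 0.00371). For kreg-1 the lit libraries read 4.32, 2.91, 8.04 and 7.1 CPM and the dark ones 0.73, 1.06, 2.69 and 1.06 CPM, with replicates 3 and 4 highest in the light and replicate 3 highest in the dark. Its log2 fold change was 2.00 (SE 0.63, adjusted p = 0.0315), and the call was lost without light_plusATR replicate 3 or 4 or without dark_plusATR replicate 1, 2 or 4, and under ERCC scaling. A similar difference of 1.95, which was not called, was present between the groups without ATR.

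The deepest fall was that of acdh-2 (WBGene00015894, chromosome II from 5544778 to 5547492), which encodes an acyl-CoA dehydrogenase, the enzyme class that starts each round of mitochondrial fatty acid oxidation. It dropped from 20.7, 17.5, 19.7 and 22.2 CPM in the dark to 0.57, 0.67, 2.0 and 0.72 CPM in the light. On the log2 scale the change was -4.32 (SE 0.25, adjusted p = 1.56e-08), and with single libraries left out it lay between -4.93 and -4.13. The gene shares exon positions with ins-13, and its level without ATR was 18.4–24.96 CPM. The vitellogenin genes vit-3 and vit-4, near-identical in sequence so that reads may be divided arbitrarily, fell next to it among abundant genes. In the lit libraries vit-3 (WBGene00006927, chromosome X from 3567355 to 3572549) was at 690.1, 614, 736 and 615 CPM and in the dark ones at 2772, 2805, 3025 and 2939 CPM. Its log2 fold change of -2.12 (SE 0.07) had the smallest p of all genes (adjusted p = 1.7e-14). F53F1.4 (WBGene00009982, chromosome V from 13411077 to 13411714), a gene without a known role, fell from 79.6, 85.2, 66.5 and 67.4 CPM to 12.32, 11.9, 16.7 and 21.7 CPM (log2 fold change -2.24, SE 0.18, adjusted p = 1.23e-06). In the light its replicates 3 and 4 were higher than replicates 1 and 2, yet below every dark library. The gene eol-1, related to decapping enzymes that act on RNA ends, fell from 35.2, 31.8, 39.95 and 36.3 CPM to 10.7, 10.7, 8.2 and 9.6 CPM, a log2 fold change of -1.87 (SE 0.12, adjusted p = 8.62e-09). The remaining large falls were B0205.13 (-2.20, from 12.5–15.9 to 1.52–4.86 CPM), B0507.8 (-2.06, from 28.4–33.6 to 5.73–9.11 CPM), chca-1 (-2.05, from 12.9–14.98 to 2.33–4.44 CPM) and the glucuronosyltransferase gene ugt-62 (-1.76, from 93.8–102 to 24.03–33.7 CPM). Among low-level genes, C09B8.4, F42C5.3 and Y2H9A.6 fell by 1.79, 1.67 and 1.67 on the log2 scale, from 3.58–4.56, 3.63–4.37 and 3.37–4.29 CPM in the dark to 0.72–1.65, 1.0–1.61 and 1.07–1.29 CPM in the light.

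**Figure D2:**
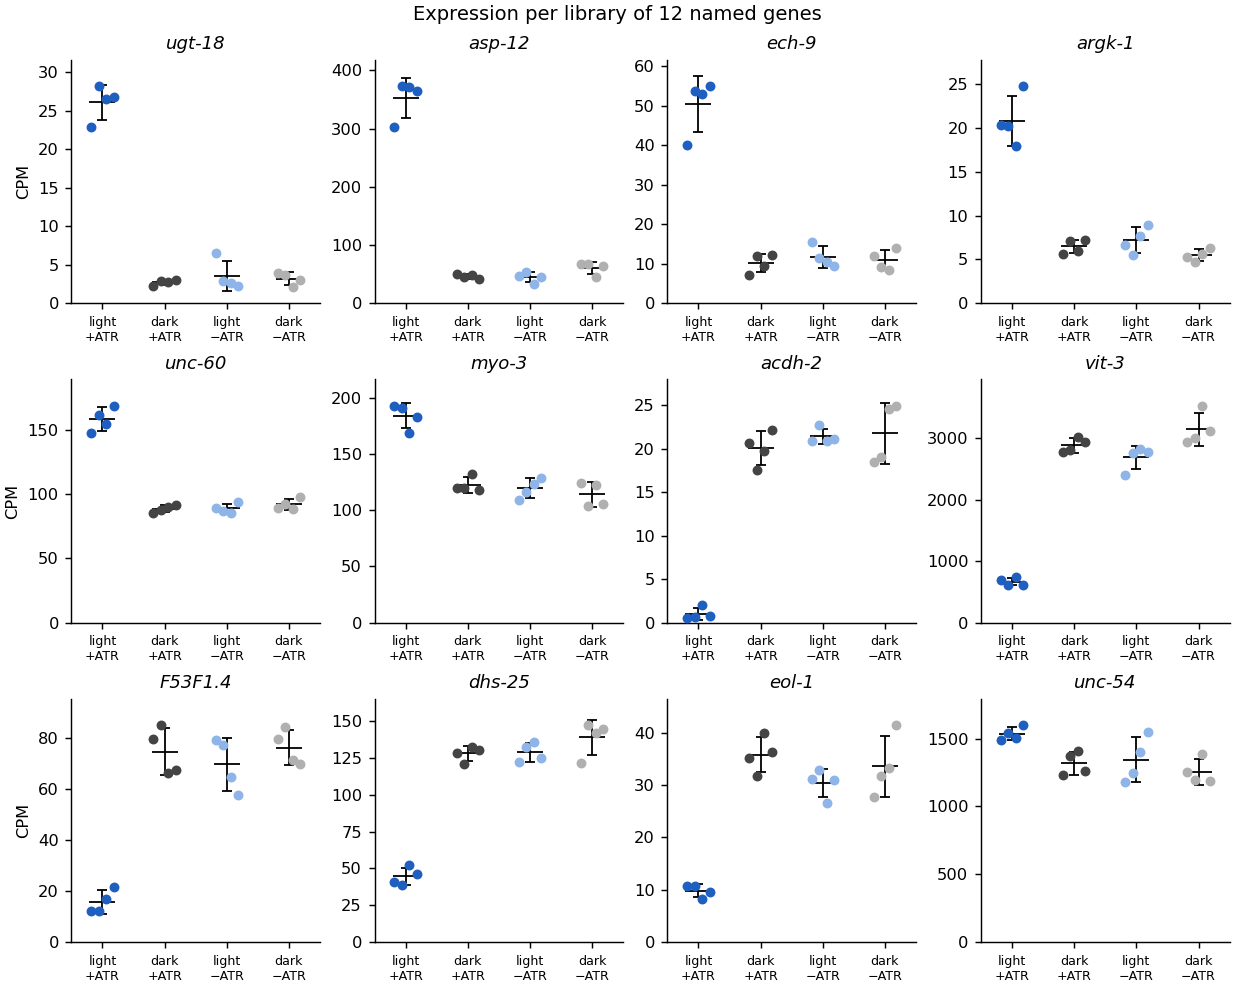
CPM (y axis, from 0) of 12 named genes in each of the 16 libraries, by group (x axis). Points are libraries, and the bar and whiskers give the mean and SD of the 4 libraries of a group. For ugt-18, asp-12, ech-9, argk-1, unc-60 and myo-3 the light_plusATR libraries lie above all other libraries, and for acdh-2, vit-3, F53F1.4, dhs-25 and eol-1 below them, while for unc-54 they reach into the range of light_minusATR.

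Several of the most precisely measured changes were moderate in size. The endonuclease gene endu-2 (an RNA-cleaving enzyme of the EndoU family) was at 255, 268, 261 and 244 CPM in the light and 142, 145, 148 and 139.5 CPM in the dark, a log2 fold change of 0.84 (SE 0.04, adjusted p = 1.71e-12). The immunoglobulin-domain gene zig-12 varied by little within each group, at 81.4–82.8 CPM in the dark and 141–152 CPM in the light, and rose by 0.82 (adjusted p = 2.09e-12). The calexcitin gene cex-1, which encodes a calcium-binding protein, rose by 1.07, from 30.8–35.6 to 66.8–78.1 CPM (adjusted p = 2.34e-12). In the other direction, the alpha-tubulin gene tba-4 fell by 0.95 on the log2 scale (62.1–66.7 against 32.6–35.6 CPM). D1086.3 and Y41C4A.32 fell by 1.61 and 1.01, from 41.03–50.03 and 78.2–85.9 CPM to 12.9–16.6 and 38.03–41.7 CPM. For each of these 6 genes, the SE of the log2 fold change lay between 0.04 and 0.07.

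Genes of the muscle sarcomere were higher in the light. Of 11 thick filament genes 9 rose and none fell (median log2 fold change 0.27), of 26 thin filament and troponin genes 14 rose and 1 fell (median 0.21), and of 27 dense body and M-line genes 17 rose and 2 fell (median 0.22). Among all genes tested 16.16% rose and 11.55% fell, so in these lists rises were more frequent and falls less frequent than the background. Under library totals the rises in these 3 lists numbered 10, 19 and 22, and under ERCC scaling, where fewer genes passed in all, 5, 12 and 9. Summed over the thick filament list, light_plusATR libraries held between 5197 and 5422 CPM and dark_plusATR libraries between 4190 and 4615 CPM. The minor myosin heavy chain gene myo-3 (WBGene00003515, chromosome V from 12226817 to 12234343), whose promoter also drives the channel, was at 193, 191, 169 and 183 CPM in the light and 119.7, 119.8, 132 and 118 CPM in the dark (log2 fold change 0.59, SE 0.06, adjusted p = 1.87e-06). The major heavy chain gene unc-54 (WBGene00006789, chromosome I from 14855901 to 14863482) is more abundant and had a smaller change. Its lit libraries read 1494, 1543, 1505 and 1602 CPM and its dark libraries 1232, 1372, 1407 and 1262 CPM. This small rise of 0.22 (SE 0.07, adjusted p = 0.027) was without overlap but lost its call under ERCC scaling and without light_plusATR replicate 2 or 4 or dark_plusATR replicate 1 or 4. The transgene carries the unc-54 3′ UTR, and reads from it and from unc-54 itself cannot be told apart here. The obscurin-like gene unc-89, the product of which lies at the M-line, rose by 0.56, from 131–148 to 201–215 CPM. The kinase gene unc-82, which is needed for thick filament order, rose by 0.52 (33.97–39.3 against 49.8–53.4 CPM).

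On the thin filament, the largest rise belonged to unc-60 (WBGene00006794, chromosome V from 1475086 to 1479576), the cofilin gene whose products sever and turn over actin filaments. It was at 147, 162, 155 and 169 CPM in the light and at 85.4, 87.8, 89.8 and 91.3 CPM in the dark (log2 fold change 0.83, SE 0.04, adjusted p = 1.32e-11), and it shares exon positions with F53E2.2. The troponin I gene tni-1, part of the calcium switch of contraction, rose by 0.77 (49.8–56.9 against 87.7–97.8 CPM) and the calponin-like gene cpn-3 by 0.63 (308–341 against 495–547 CPM). All 3 had non-overlapping groups and a SE of at most 0.05. At attachment sites, the LIM-domain gene alp-1 rose by 0.44 (63.3–68.4 against 87.1–90.3 CPM), the alpha-integrin gene pat-2 by 0.47 (75.6–79.4 against 102.9–114 CPM) and the zinc finger gene unc-98 by 0.60 (13.7–15.3 against 20.8–23.04 CPM, sharing exon positions with F08C6.18). Genes of the pharynx, whose muscle does not carry the channel, were higher too. Of the 17 tested genes of the pharyngeal list 7 rose and none fell (median 0.34). The pharyngeal troponin genes tni-4 and tnc-2 were higher by 0.34 and 0.43. The pharyngeal gland gene phat-3 rose by 0.36, so the list is not of muscle alone. Summed CPM of that list was 704 to 724 in the light and 539 to 610.3 in the dark.

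Calls among genes that excite muscle or handle its calcium depended on the scaling. Of 30 calcium and excitation genes 6 rose and 1 fell (median 0.08), with 14 rises under library totals and 4 under ERCC scaling. The calcineurin regulator gene rcan-1 rose by 0.61, from 15.2–18.9 to 22.96–29.4 CPM (adjusted p = 3.07e-05). The calsequestrin gene csq-1, whose product buffers calcium in the sarcoplasmic reticulum, rose by 0.37. By contrast, unc-68, the ryanodine receptor gene through which that calcium is released, fell from 62.9, 65.0, 71.7 and 66.9 CPM to 51.9, 50.5, 53.4 and 48.3 CPM (log2 fold change -0.39, SE 0.06, adjusted p = 4.53e-05). Of 30 neuromuscular junction genes 5 rose and 1 fell (median 0.18), among them unc-13, which primes synaptic vesicles (0.59), the GABA receptor gene unc-49 (0.33) and lev-10, which clusters acetylcholine receptors (0.23, sharing exon positions with eat-18 and not called under ERCC scaling). Without light_plusATR replicate 4, or dark_plusATR replicate 1, 2 or 4, the number of rises was 3, and it was 11 under library totals and 2 under ERCC scaling. Among 26 activity- and calcium-responsive factors 5 rose and none fell (median 0.11), including the calmodulin kinase gene cmk-1 (0.54) and the kinase gene pmk-3 (0.30). Library totals raised this number to 11. Calcium and excitation, neuromuscular junction and activity-responsive genes rose in 20%, 16.7% and 19.2% of cases, near the 16.16% of all genes tested. Falls were 3.3%, 3.3% and 0%, against 11.55% of all genes tested.

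Peptide signals and neuron genes were more often called higher than lower. Of 121 tested genes for neuropeptides and insulin-like peptides (of 146 in the table), 47 rose and 2 fell, at a median of 0.29 (log2). By name, 15 of 30 flp and 26 of 63 nlp genes rose, and 5 of 24 insulin-like genes. The nlp names include nlp-24 and nlp-34, which also stand in the list of epidermal antimicrobial peptides. Transcripts of the whole list are of low level, where the median change of all genes was also above 0. The peptide gene flp-18 had 34.8, 35.9, 34.3 and 35.4 CPM in the light and 23.7, 22.1, 21.99 and 22.96 CPM in the dark (log2 fold change 0.63, SE 0.06, adjusted p = 3.66e-08), and nlp-11 and nlp-21 rose by 0.63 and 0.58. From the list of neuron genes, those with the smallest p are involved in making or storing peptides. The insulinoma antigen homologue gene ida-1 rose by 0.46 (39.7–42.6 against 54.1–56.98 CPM), the carboxypeptidase gene egl-21 by 0.29 and the convertase gene egl-3 by 0.25, the last of which lost its call under ERCC scaling. Over the whole list of 35 tested neuron genes, 7 rose and none fell (median 0.10), and 4 rose without light_plusATR replicate 1 or dark_plusATR replicate 1 or 2 and 2 under ERCC scaling. Their summed level was 927 to 958 CPM in the light and 877 to 902 CPM in the dark. Of the neuron genes 20% rose, near the 16.16% of all genes tested, and 0% fell, against 11.55%.

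In the myosin chaperone network 2 of 17 genes rose and 8 fell (median -0.17, or -0.09 under library totals). There were 3 rises and 5 falls under library totals and 1 rise and 2 falls under ERCC scaling. The myosin chaperone gene unc-45 itself was at 77.7, 75.8, 76.2 and 72.0 CPM in the light and 78.6, 77.2, 79.3 and 72.2 CPM in the dark, with overlapping groups and a log2 fold change of -0.03 that was not called (adjusted p = 0.661) and was 0.05 under library totals. The ligase genes chn-1 (-0.05, adjusted p = 0.352, and 0.02 under library totals) and ufd-2 (-0.10, adjusted p = 0.05014) did not pass either, nor did F40A3.6 (-0.25, adjusted p = 0.154). The RING-domain gene nhl-1 rose, from 29.2, 27.99, 30.9 and 28.6 CPM in the dark to 39.8, 37.7, 33.4 and 30.7 CPM in the light. The groups overlapped, and the log2 fold change was 0.28 (SE 0.07, adjusted p = 0.00391). The abundant chaperone gene hsp-90 fell from 3599, 3464, 3478 and 3214 CPM to 3062, 2850.4, 2692 and 2788 CPM (log2 fold change -0.27, SE 0.07, adjusted p = 0.00518), a call that ERCC scaling did not keep. The genes hsp-110, dnj-13 and dnj-12 of the same list fell by 0.34, 0.26 and 0.19, the last again not under ERCC scaling.

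Chaperone genes had more falls than rises, to an extent that varied with the scaling. Of 22 tested cytosolic heat shock genes 9 fell and 3 rose (median -0.16), against 5 falls and 6 rises under library totals and 2 falls and 1 rise under ERCC scaling. The strongest rise was in the small heat shock protein gene hsp-12.3, from 1.02–1.51 to 2.33–3.04 CPM (1.0980, adjusted p = 0.000182). The inducible gene hsp-16.2 was under the count filter and was not tested. In the endoplasmic reticulum, 13 of 28 genes of the unfolded protein response fell and none rose (median -0.14), with 7 falls under library totals and 3 under ERCC scaling. The BiP gene hsp-4, the usual reporter of that response, was at 351, 343, 335 and 352 CPM in the light and 448, 426, 464 and 438 CPM in the dark (log2 fold change -0.36, SE 0.04, adjusted p = 1.66e-06). The disulfide isomerase gene pdi-6 and the DnaJ gene dnj-27 fell by 0.26 and 0.38. For the mitochondrial unfolded protein response, 7 of 20 genes fell and 1 rose (median -0.06, but 0.02 under library totals). Library totals gave 2 falls and 2 rises, and ERCC scaling 1 fall. The chaperonin gene hsp-60 fell by 0.46, from 413–468 to 306–337 CPM (adjusted p = 1.21e-05), while smaller falls of tomm-20 (-0.22) and phb-1 (-0.17) were not called under ERCC scaling, nor that of phb-1 under library totals.

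The proteasome fell nearly as a whole. Of 33 subunit genes 28 were lower and none was higher, and the median change was -0.20 (log2) with a lowest value of -0.24. By name, 11 of 14 core particle genes and 17 of 19 regulatory particle genes were lower. As examples, rpn-7 was at 321, 319.6, 309 and 312 CPM in the light and 386, 371, 363 and 358 CPM in the dark (log2 fold change -0.23, SE 0.05, adjusted p = 0.00171), and rpn-3 and pas-1 fell by 0.22 and 0.23. The median was -0.12 under library totals (8 lower and 1 higher) and -0.19 under ERCC scaling, where no member passed. Without dark_plusATR replicate 1 the count of lower subunit genes was 18. Translation genes were lower by less. Of 82 cytosolic ribosomal protein genes 80 had a value below 0, but the median was -0.09 (-0.01 under library totals) and only rpl-35 (-0.17) fell and rpl-24.2 (0.19) rose. Without light_plusATR replicate 4, 30 fell. Of 47 translation factor genes 13 fell and none rose (median -0.11, 8 falls without dark_plusATR replicate 1), of 32 aminoacyl-tRNA synthetase genes 7 fell and none rose (median -0.11, with 3, 2 and 2 falls without light_plusATR replicate 3, dark_plusATR replicate 1 and dark_plusATR replicate 2), and of 69 mitochondrial ribosomal protein genes 5 fell and none rose. The median of the last was -0.07 and turned to 0.01 under library totals, and its falls numbered 12 and 9 without light_plusATR replicate 4 and dark_plusATR replicate 4, and 3 and 2 without light_plusATR replicate 3 and dark_plusATR replicate 1. Under ERCC scaling none of these 4 lists had a fall that passed. In the main fit falls made up 1.2% of cytosolic and 7.2% of mitochondrial ribosomal protein genes, below the 11.55% of all genes tested. The shares were 27.7% for translation factor and 21.9% for aminoacyl-tRNA synthetase genes, above it. Abundant genes as a whole were also lower, with a median of -0.089 in the highest decile by level. Whether these 4 lists differ from other genes of their level was not tested. The named falls eif-2Bepsilon (-0.18), eif-3.J (-0.18) and the release factor gene erfa-1 (-0.22), gars-1 (-0.28), iars-2 (-0.15) and pars-2 (-0.17), and mrps-35 (-0.14), mrps-34 (-0.18) and mrpl-10 (-0.17) are all of this small size.

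Lysosomal proteases moved strongly and in both directions. Of 23 tested genes 15 rose and 6 fell (median 0.35), and leaving out any one library gave 15 or 16 rises and 6 falls. Their summed level was 15748 ± 381.3 CPM in the light and 11727.5 ± 340.2 CPM in the dark (SD, n = 4 each), without overlap. The aspartic protease gene asp-1, an abundant intestinal transcript, was at 3441, 3502, 3583 and 3478 CPM in the light and 2185, 2279, 2309 and 2263 CPM in the dark (log2 fold change 0.63, SE 0.04, adjusted p = 1.07e-09). The cathepsin B-like genes cpr-1 and cpr-4 rose by 0.91 (461–548 against 902–1001 CPM) and 1.17 (408–475 against 953–1088 CPM). These named genes have the smallest p of the list and all rose, but values in the list ran from -2.045 to 2.945 (log2). Autophagy genes did not show a comparable shift. Of 40 genes 6 rose (3 under ERCC scaling) and 1 fell, and the median was -0.01 (0.06 under library totals). The receptor gene sqst-1 rose by 0.43, from 64.4–76.6 to 91.6–97.4 CPM (adjusted p = 6.91e-06), the mitochondrial fission gene fis-1 by 0.82 at a low level (1.08–1.69 against 2.03–3.26 CPM) and hlh-30, which encodes a regulator of lysosome and autophagy genes, by 0.30 (not called under ERCC scaling).

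**Figure D3:**
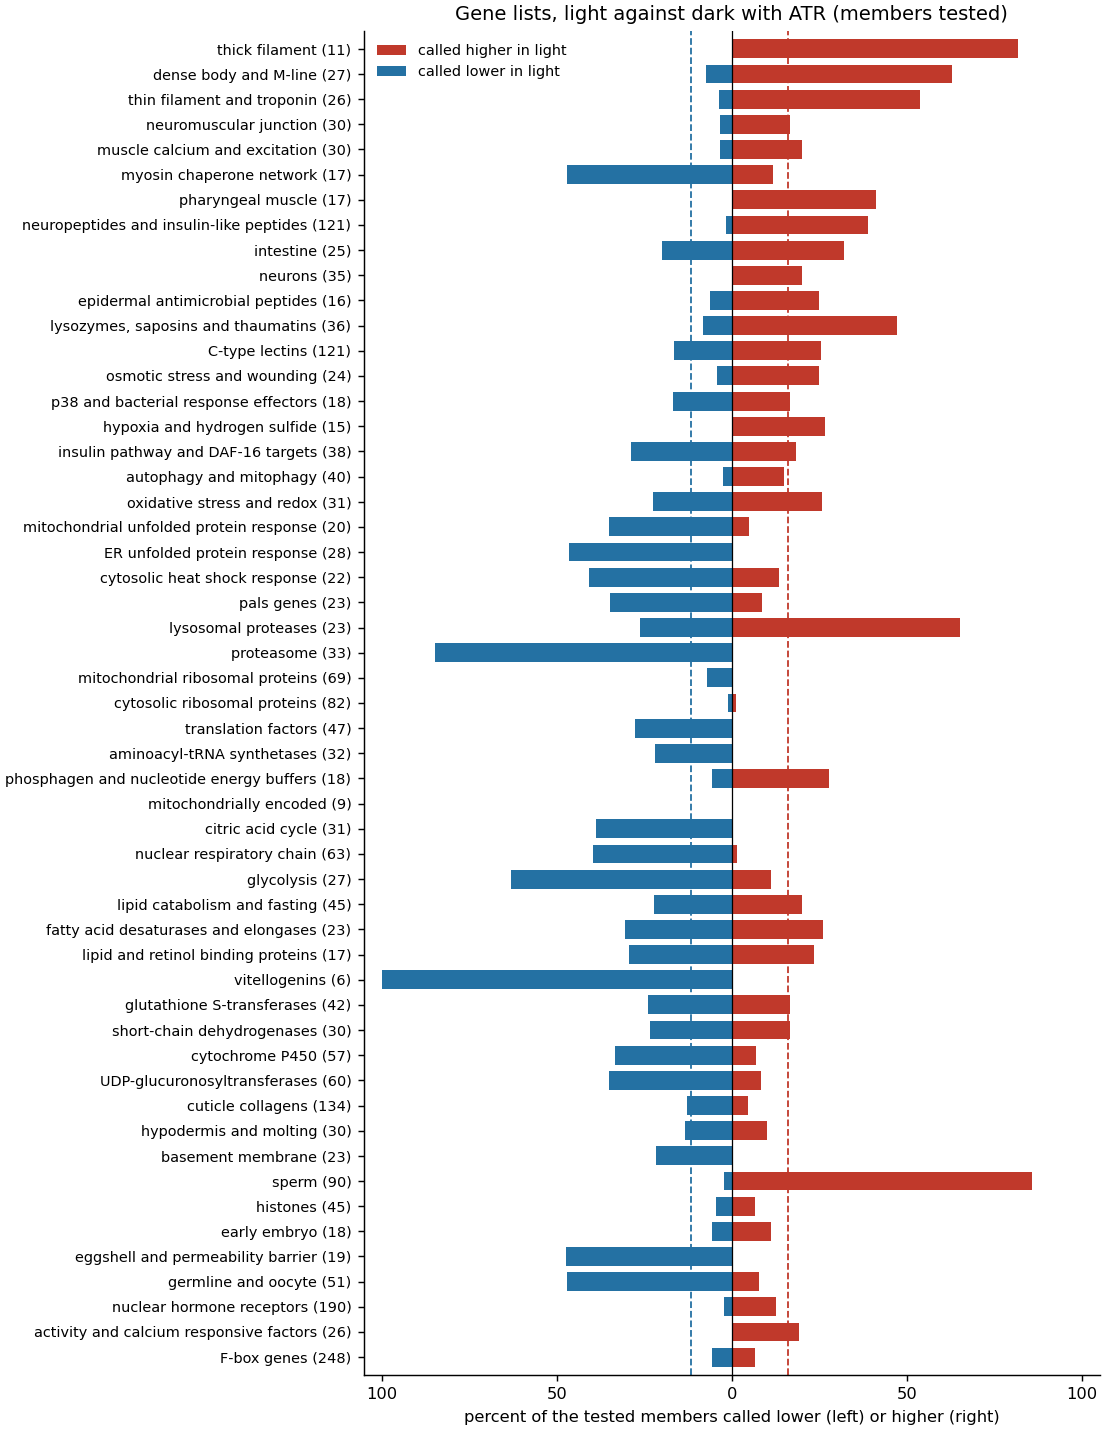
Percent of the tested members of 53 gene lists called higher (red, to the right) or lower (blue, to the left) in light_plusATR against dark_plusATR, with the number tested in brackets. Dashed lines mark the shares over all 15044 genes, 16.16% higher and 11.55% lower. The longest red bars are those of the sperm, thick filament, lysosomal protease and dense body lists, and the longest blue bars those of the vitellogenin, proteasome and glycolysis lists.

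Genes of defence against microbes divided by family. Of 36 tested genes for lysozymes, saposins and thaumatins (of 61 in the table) 17 rose and 3 fell (median 0.21). The lysozyme gene lys-4 was at 328.8, 336, 381 and 382 CPM in the light and 206, 216, 224 and 241 CPM in the dark (log2 fold change 0.69, SE 0.06, adjusted p = 8.05e-09), and the saposin-like genes spp-2, spp-18 and spp-23 rose by 1.08, 0.69 and 1.42. C-type lectin genes went both ways, with 31 of 121 tested (265 in the table) higher and 20 lower (median 0.15). Of these, clec-53 and clec-150 rose by 1.44 and 0.57 and clec-41 fell by 0.55. The pals genes, a worm family known from the response to intracellular pathogens, were mostly lower where called. Of 23 tested genes (39 in the table) 8 fell and 2 rose (median -0.17), with pals-38, pals-39 and pals-33 at log2 fold changes of -1.59, -1.16 and -1.12 and at levels of 1.67–1.91, 1.27–2.16 and 2.05–3.0 CPM in the light against 4.69–6.56, 3.3–4.31 and 4.85–6.72 CPM in the dark. Effectors of the p38 pathway and of bacterial response were balanced, with 3 of 18 higher and 3 lower (median 0.06), F53A9.8 being the largest rise and irg-4 (-0.73) and irg-8 (-0.36) lower. Among 16 tested antimicrobial peptide genes of the epidermis 4 rose and 1 fell (median 0.24). The fall was that of nlp-24, from 30.9–37.7 to 9.84–21.4 CPM (-1.15), and the rises included nlp-34 (2.13, SE 0.51) and cnc-10 (0.52). Without light_plusATR replicate 4 this list had 2 rises and 3 falls, and without dark_plusATR replicate 4 it had 2 rises.

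Other stress lists were mixed. Of 31 oxidative stress and redox genes 8 rose and 7 fell, with a median of -0.04 (0.04 under library totals). The glutathione peroxidase gene gpx-3 rose by 0.64, from 14–15.4 to 21.1–23.6 CPM, and the catalase gene ctl-2 by 0.26 (69.4–73.5 against 80.4–89.7 CPM). Of 38 genes of the insulin pathway and its DAF-16 targets 7 rose and 11 fell, with a median of 0.00 whose sign changed in 8 of the alternatives, dao-3 falling by 0.70 and the thaumatin gene thn-1 rising by 1.09. Of 15 hypoxia and hydrogen sulfide genes 4 rose and none fell (median 0.01, below 0 without light_plusATR replicate 2 or 3 or dark_plusATR replicate 4), namely ferritin ftn-1 (1.08), cysl-2 (0.46), nhr-57 (0.59, which shares exon positions with lgc-1) and F22B5.4 (0.68, chosen after its value was seen). Of 24 genes of osmotic stress and wounding 6 rose and 1 fell (median 0.10, with 3 rises without light_plusATR replicate 4). The strongest of these was lea-1, which encodes a late embryogenesis abundant protein that protects cells from water loss. It was at 636, 682, 589 and 679 CPM in the light and 418, 435, 437 and 402 CPM in the dark (log2 fold change 0.61, SE 0.05, adjusted p = 1.78e-08), while osm-7 and the aquaporin gene aqp-8 rose by 0.38 and 0.34.

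Transcripts of energy metabolism were lower at several steps. Of 27 genes of glycolysis and gluconeogenesis 17 fell and 3 rose (median -0.21). The phosphoenolpyruvate carboxykinase gene pck-1, which commits carbon to glucose synthesis, fell from 99.2, 98.6, 101 and 104.8 CPM to 47.3, 39.5, 54.4 and 56.7 CPM (log2 fold change -1.03, SE 0.08, adjusted p = 1.25e-07). The glyceraldehyde-3-phosphate dehydrogenase gene gpd-2, which shares exon positions with mai-1, fell by 0.58 (281–302 against 174–211 CPM) and the fructose bisphosphatase gene fbp-1 by 0.35. In the citric acid cycle 12 of 31 genes fell and none rose (median -0.12), with the malate dehydrogenase genes mdh-2 and mdh-1 lower by 0.38 and 0.33 and idhb-1 by 0.26. Among nuclear genes of the respiratory chain 25 of 63 fell and 1 rose (median -0.13), a count that became 40 without light_plusATR replicate 4, and gas-1 (-0.32), ucr-2.2 (-0.30) and ndub-3 (-0.30) are examples. Under library totals the falls in these 2 lists numbered 6 and 7 and under ERCC scaling 5 and 5. In the main fit falls made up 63% of glycolysis, 38.7% of citric acid cycle and 39.7% of respiratory chain genes, against 11.55% of all genes tested. Abundant genes as a whole were also lower, with a median of -0.089 in the highest decile by level. Whether these lists differ from other genes of their level was not tested. None of the 9 mitochondrially encoded genes was called (median -0.10, between -0.30 and 0.06 with single libraries left out), and their summed level was 2276 ± 604.5 CPM in the light and 2680.3 ± 392.8 CPM in the dark (SD, n = 4 each). Of 18 genes for phosphagen and nucleotide buffers 5 rose and 1 fell (median 0.03). Beside argk-1, the AMP kinase subunit gene aakg-4 rose by 0.48. By contrast F46H5.3, of the same list and far more abundant than argk-1, fell from 903–962 to 686–773 CPM (-0.34). The list summed to 5105.9 ± 267.6 CPM in the light and 5393.2 ± 33.9 CPM in the dark (SD, n = 4 each), with overlap.

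Yolk genes fell together. All 6 vitellogenin genes, which the adult intestine expresses to provision oocytes, were lower in the light, their median of -1.25 (log2) having stayed between -1.29 and -1.21 with single libraries left out. Their summed level was 27928 to 33638 CPM in light_plusATR and 45708.5 to 55227 CPM in dark_plusATR. The falls were unequal. Beside vit-3 and vit-4 (-2.13), vit-1 fell by 1.52 (1389–1517 against 449–549 CPM) and vit-5 by 0.97 (7809–8813 against 3638–4614 CPM). The most abundant, vit-2 and vit-6, fell by 0.38 and 0.46, and the call of vit-2 was lost under ERCC scaling. For vit-2 the dark libraries read 15243, 16610.4, 19113 and 15732 CPM and the lit libraries 13847, 13439, 12534 and 11577 CPM, without overlap. Reads of vit-1 and vit-2, like those of vit-3 and vit-4, may be shared between near-identical copies.

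Lipid enzymes changed in both directions. Among 45 tested genes of lipid breakdown and fasting 9 rose and 10 fell (median 0.00, with a sign that changed in 10 of the alternatives). The peroxisomal acyl-CoA oxidase gene acox-1.5 was at 103.9, 118, 102 and 96.9 CPM in the light and 40.2, 39.7, 41.8 and 44.2 CPM in the dark, a rise of 1.34 (SE 0.06, adjusted p = 5.59e-12). The acyl-CoA synthetase gene acs-1 and the mitochondrial enoyl-CoA hydratase gene ech-6 fell by 0.62 (208–215 against 127–149 CPM) and 0.61 (304–333 against 201–217 CPM). Thus acdh-2 and ech-6 fell while ech-9 and acox-1.5 rose. Of 23 genes for desaturases, elongases and other steps of fatty acid synthesis 6 rose and 7 fell, the median being -0.05 and, under library totals, 0.03. The desaturase genes fat-5 and fat-7, which introduce the first double bond, fell by 0.95 (25.9–30.2 against 12.11–15.7 CPM) and 0.70 (79.3–94.0 against 48.8–60.6 CPM), and the elongase gene elo-5 of branched-chain fatty acid synthesis by 0.41. Among the rises were the desaturase genes fat-2 (0.39), fat-3 (0.26), fat-4 (0.23) and fat-6 (0.19) and the elongase genes elo-7 (0.98) and elo-8 (0.71), named after their values were seen. The copies fat-6 and fat-7 are close in sequence, so their opposite values are uncertain. Lipid and retinol binding protein genes split 4 higher and 5 lower of 17 (median -0.10), with far-6 and lbp-2 lower by 0.69 and 0.69 and lbp-1 higher by 0.24.

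Calls in the detoxification families were more often lower than higher, though not in all families under each scaling. Of 57 tested cytochrome P450 genes (80 in the table) 19 fell and 4 rose (median -0.12). Rises numbered 1 without light_plusATR replicate 1 or 4 or dark_plusATR replicate 1, and 2 without each other dark_plusATR library. The gene cyp-35A2, a P450 that is well known for its response to foreign compounds, was at 13.6, 10.9, 17.1 and 12.5 CPM in the light and 32, 35.4, 32.9 and 38.1 CPM in the dark (log2 fold change -1.35, SE 0.10, adjusted p = 6.16e-08). Its dark libraries with ATR also lay below the 53.2–62.7 CPM of the libraries without ATR. The related gene cyp-35C1 fell by 1.16 and cyp-25A1 by 1.34. Of 60 tested UDP-glucuronosyltransferase genes 21 fell and 5 rose (median -0.19, with 3 rises without dark_plusATR replicate 3), although ugt-18, described above, belongs to this family. Besides ugt-62, ugt-19 and ugt-22 fell by 1.47 and 0.90. Among 42 tested glutathione S-transferase genes 10 fell and 7 rose (median -0.04, or 0.04 under library totals, where 7 fell and 8 rose). There gst-20 rose by 0.81, from 32.7–33.7 to 55.5–63.1 CPM, and gst-10 and gst-13 fell by 0.97 and 0.53. Short-chain dehydrogenase genes had 7 falls and 5 rises among 30 tested (median -0.05, or 0.02 under library totals, where 5 fell and 6 rose). The gene dhs-25 fell from 129, 121, 132 and 131 CPM in the dark to 40.8, 38.9, 52.1 and 46.1 CPM in the light, a change of -1.52 (SE 0.08, adjusted p = 3.01e-10), while dhs-3 fell by 0.79 and dhs-4 rose by 0.62.

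Epidermal and matrix genes had few calls. Of 134 tested collagen genes of the cuticle (178 in the table) 6 rose and 17 fell, with 10 falls under library totals and 11 under ERCC scaling, while the median of all was 0.20 and turned to -0.06 without light_plusATR replicate 4. Rises numbered 3 without light_plusATR replicate 2 or dark_plusATR replicate 1 or 4. Their summed level ran from 26819.5 to 35074 CPM in the light, with replicate 4 at the top, and from 32905 to 35777 CPM in the dark, so the groups overlapped. The abundant gene col-95 rose by 0.74, from 491–534 to 779–911 CPM, while col-8 and col-143 fell by 0.51 (1121–1229 against 716–933 CPM) and 0.40. For hypodermis and molting genes the counts were 3 higher and 4 lower of 30 (median 0.09), with the hedgehog-related genes grd-3 and grd-5 lower by 0.49 and 0.54 and the astacin protease gene nas-37 higher by 0.39. Among 23 basement membrane genes 5 fell and none rose, with a median of -0.03 (0.05 under library totals, where 5 rose and 4 fell, and 0.002 without dark_plusATR replicate 3). Those 5 include nidogen nid-1 (-0.52, 72.8–79.4 against 51.9–52.98 CPM), hemicentin him-4 (-0.40) and laminin beta lam-1 (-0.29). Of 25 intestinal markers 8 were higher and 5 lower (median 0.12, 15 higher under library totals). Both shares, 32% and 20%, were above the 16.16% and 11.55% of all genes tested. The summed level of these markers was 7957 to 8365 CPM in the light and 6196 to 6450.1 CPM in the dark. Of these sums asp-1 made up 3441–3583 and 2185–2309 CPM. The exchanger gene nhx-2 rose by 0.75, from 51.99–57.6 to 84.3–99.2 CPM.

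Reproductive genes moved apart. Of 51 germline and oocyte genes 24 fell and 4 rose (median -0.125), and of 19 eggshell genes 9 fell and none rose (median -0.11). Falls were small, such as the yolk receptor gene rme-2 from 1187, 1164, 1218 and 1198 CPM to 1095, 1065, 1017 and 1011 CPM (-0.19, adjusted p = 0.00258), puf-5 (-0.17), egg-5 (-0.19), gna-2 (-0.20) and cpg-9 (-0.48, sharing exon positions with Y67D8C.22). The synapsis gene syp-1 rose by 0.25 and shares exon positions with F13A7.14, and its call was lost under ERCC scaling. Under library totals and under ERCC scaling no germline gene was called lower, and 1 eggshell gene was. The germline median was -0.05 under library totals and -0.12 under ERCC scaling. The germline falls numbered 15 without light_plusATR replicate 4 and 13 without dark_plusATR replicate 3, the eggshell falls 5 and 4, and the germline rises 1 without light_plusATR replicate 1, 2 or 4 or dark_plusATR replicate 4 and 2 without the other dark_plusATR libraries. Summed germline levels were 26044 to 28061 CPM in the light, lowest in replicate 4, and 29554.5 to 30748 CPM in the dark. Sperm genes rose almost throughout. Of 90 tested 77 were higher and 2 lower, and the median change was 0.68 (log2). Of the major sperm protein genes 29 of 30 rose, all between 0.57 and 1.25 on the log2 scale including the one not called, but these genes are near-identical copies and do not count as separate measurements. By library the list summed to 2185, 2280.4, 2667 and 3295 CPM in light_plusATR and to 1879, 2038, 1531 and 1491 CPM in dark_plusATR. Thus the groups did not overlap but both varied, and 51 genes rose without light_plusATR replicate 4, without dark_plusATR replicate 3 or without dark_plusATR replicate 4. The named members nspd-10, nspd-7 and ssp-31 rose by 0.92, 0.75 and 0.78. A median of 0.52 was found for the same list between light_minusATR and dark_minusATR, and none of its members had a higher interaction call. Of 18 tested embryo genes 2 rose (hlh-1 by 0.43 and pha-4 by 0.44) and pal-1 fell (-0.18, not called under library totals or ERCC scaling), with a median of 0.09 and 4 rises under library totals. Of 45 histone genes 3 rose and 2 fell (median 0.10, with 7 rises under library totals and 1 under ERCC scaling), among them his-70 (0.90), his-71 (0.28, not called under ERCC scaling) and his-38 (-0.60).

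**Figure D4:**
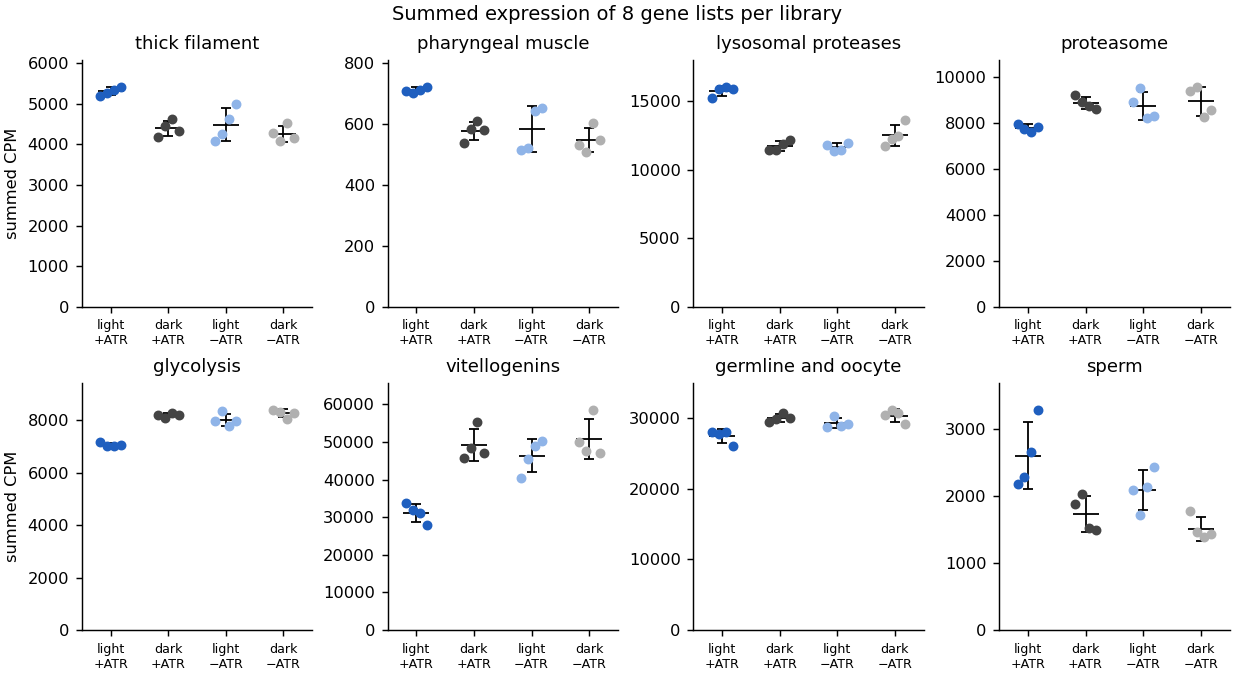
Summed CPM (y axis, from 0) of 8 gene lists in each library, by group (x axis). Points are libraries, and the bar and whiskers give the mean and SD of 4 libraries. In light_plusATR the thick filament, pharyngeal muscle and lysosomal protease sums lie above all dark_plusATR libraries and the proteasome, glycolysis, vitellogenin and germline sums below them. Sperm sums in light_minusATR (1714 to 2437 CPM) overlap with both.

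Of 190 tested nuclear hormone receptor genes (288 in the table) 24 rose and 4 fell (median 0.11), with 14 rises without light_plusATR replicate 4 or dark_plusATR replicate 1 and 13 under ERCC scaling. The gene nhr-74 fell from 3.04, 2.99, 2.0 and 2.63 CPM to 0.57, 0.09, 0.12 and 0.42 CPM (-3.0997), nhr-114 fell by 0.42 at a higher level (142–148 against 106–109.8 CPM), and nhr-202, which shares exon positions with nhr-201, rose by 0.77. Of 248 tested F-box genes (391 in the table) 16 rose and 14 fell (median 0.11), which became 7 and 8 rises without dark_plusATR replicates 3 and 4, and 9 falls without light_plusATR replicate 4 or dark_plusATR replicate 2. Library totals gave 29 rises and 8 falls. Beside fbxa-24, fbxa-202 rose by 1.03 and fbxa-26 fell by 2.04, both at low levels. In the main fit both lists had smaller shares of rises and of falls than all genes tested (16.16% higher and 11.55% lower).

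The libraries without ATR show the effect of light where the channel lacked its added cofactor. Between light_minusATR and dark_minusATR no gene was called higher (0%) or lower (0%) by edgeR's quasi-likelihood test, although 2012 genes had an unadjusted p under 0.05, and DESeq2 called 177. A difference between the effects of light with and without ATR was tested for each gene as an interaction term. It was called for 787 genes, with 388 higher (2.579%) and 399 lower (2.652%). Of these 787 genes 771 (98%) had also been called in the same direction in light_plusATR against dark_plusATR, which is 18.5% of the 4169 called there. That difference is a term of the interaction and shares its 8 libraries, so the overlap is no independent result. For the other called genes a difference between the effects with and without ATR was not shown. The change without ATR had the same sign for 77.3% of the called genes and for 60.1% of those not called, and its median was 0.191 for the genes that rose with ATR and -0.039 for those that fell. Library totals gave 589 higher and 284 lower interaction calls, and ERCC scaling, which shifted the median interaction of all genes from 0.01 to -0.10, gave 124 and 296.

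For asp-12 the light effect was 2.94 with ATR and -0.44 without it, an interaction of 3.38 (SE 0.22, adjusted p = 4.74e-07). For acdh-2 the effects were -4.32 and -0.03, with an interaction of -4.29 (SE 0.31, adjusted p = 5.39e-07). Other genes with high interactions were ugt-18 (3.05), clec-70 (2.87), ech-9 (2.21), clec-53 (1.69), Y39B6A.21 (1.64), Y39B6A.1 (1.58) and spp-23 (1.52). On the low side stood nas-3 (-2.77), an astacin protease gene that fell with ATR from 4.52, 3.7, 3.9 and 2.98 CPM to 0.88, 0.58, 0.50 and 0.27 CPM, F53F1.4 (-2.12), chca-1 (-1.91), B0507.8 (-1.90), vit-4 (-1.90), vit-3 (-1.89) and B0205.13 (-1.86). The lists differed in how many of their calls had an interaction. Lysosomal proteases had 12 higher and 4 lower interaction calls among 23 genes, lysozymes and saposins 13 and 2 among 36, glycolysis 10 lower of 27, and thin filament genes 9 higher of 26. Of the thick filament genes 3 had a higher interaction, among them myo-3 (0.52, adjusted p = 0.00121), and unc-54 had none (0.12, adjusted p = 0.613). No proteasome gene had an interaction call, and of the sperm genes 1 had a lower one. Neuropeptide genes had 15 higher and 1 lower.

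**Figure D5:**
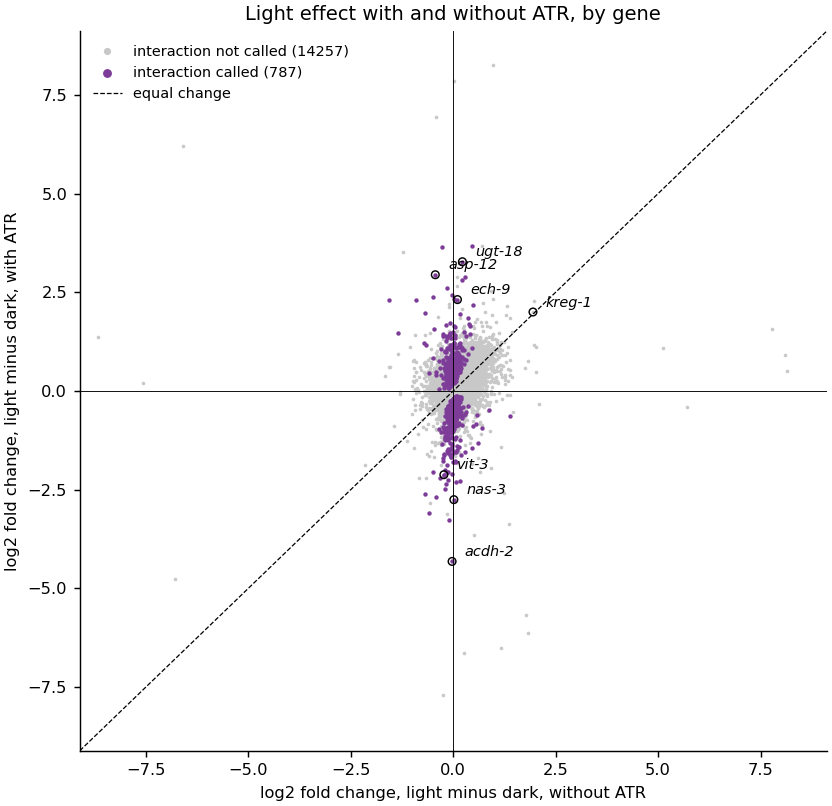
Log2 fold change of light against dark with ATR (y axis) and without ATR (x axis) for 15044 genes. Purple points are the 787 genes with a called interaction and the dashed line marks equal change. Purple points spread along the y axis and stay near 0 on the x axis, as for acdh-2 at -4.32 and -0.03, while kreg-1 lies near the line at 2.00 and 1.95.

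The comparison of lit worms with and without ATR uses the same light_plusATR libraries, so its values are no independent check and are only set beside those above. There asp-12 differed by 2.98, ugt-18 by 2.82, acdh-2 by -4.41, vit-3 by -2.02, myo-3 by 0.62 and unc-60 by 0.83 on the log2 scale. For srr-6 and kreg-1 the values were 1.37 and 0.89, lower than the 2.15 and 2.00 of light against dark with ATR.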

How the data were processed

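Whole-worm RNA was sequenced in 16 libraries, 4 per group, and grouped by the labels. The authors' deposited values are estimated counts per gene on WBcel235, not normalized, in which 96.4% of values are whole. A series matrix named for TPM held the same counts and was read as such. They were rounded to whole numbers. The ERCC spike-ins were kept out of library sizes. Names and positions of 46817 of 46904 genes came from Ensembl release 115.

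Genes were filtered with filterByExpr, leaving 15044. edgeR 4.0.16 (R 4.3.3) scaled by TMM and fitted 1 coefficient per group to all 16 libraries with the robust quasi-likelihood F test, with Benjamini-Hochberg adjustment at 0.05. The statistics were checked on simulated data. Log2 CPM used a prior count of 2. Standard errors are the log2 fold change divided by the root of F. List sums and levels are in CPM.

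The comparison and the 53 gene lists were chosen with earlier results of these data known. Named genes were the 12 largest rises, 12 largest falls and 10 smallest p among non-overlapping called genes of at least 1 mean log2 CPM, the 3 smallest p of each list (all called genes of lists of up to 10), the 8 largest interactions each way and the myosin network genes. Name-prefix families were chosen after values were seen. Alternatives were DESeq2 1.42.0, library totals, ERCC scaling, TMM without reproduction lists, no filter, a replicate block, the 8 libraries alone, and each replicate left out. P-values measure the spread between these libraries. No check of GC content was made.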

Additional observations from a re-analysis of the deposited data

Results flagged for a closer look

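In 15 of 186 groups of 4 libraries tested, 1 library lay far from the other 3 of its group by Dixon's gap at the 95% level, which chance gives in about 1 of 20 groups. Single genes with such a library were asp-12 in light_plusATR replicate 1 (302 CPM), clec-70 in dark_plusATR replicate 3 (2.03 CPM), ech-9 in light_plusATR replicate 1 (39.95 CPM), kreg-1 in dark_plusATR replicate 3 (2.69 CPM), acdh-2 in light_plusATR replicate 3 (2.0 CPM), tba-4 in light_plusATR replicate 4 (35.6 CPM), Y41C4A.32 in light_plusATR replicate 2 (38.03 CPM) and myo-3 in dark_plusATR replicate 3 (132 CPM). The lists with such a library, by summed level, were mitochondrial unfolded protein response in light_plusATR replicate 3 (2590 CPM), UDP-glucuronosyltransferases in dark_plusATR replicate 4 (888 CPM), hypodermis and molting in dark_plusATR replicate 2 (828 CPM), intestine in dark_plusATR replicate 1 (6196 CPM), germline and oocyte in light_plusATR replicate 4 (26040 CPM), eggshell and permeability barrier in light_plusATR replicate 4 (11960 CPM) and nuclear hormone receptors in light_plusATR replicate 3 (2025 CPM).

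For 33 genes the effect of light differed between worms with and without ATR by the interaction test of edgeR, and the interactions are given on the log2 scale. The effect was higher with ATR for asp-12 (3.38), ugt-18 (3.05), clec-70 (2.87), ech-9 (2.21), clec-53 (1.69), Y39B6A.21 (1.64), Y39B6A.1 (1.58), spp-23 (1.52), argk-1 (1.3036), B0024.4 (1.25), F53A9.8 (1.24), cex-1 (1.1243), fbxa-24 (1.04), zig-12 (0.83), endu-2 (0.78) and myo-3 (0.52). It was lower with ATR for tba-4 (-0.82), Y41C4A.32 (-0.88), vit-1 (-1.36), ugt-62 (-1.51), D1086.3 (-1.58), Y2H9A.6 (-1.60), F42C5.3 (-1.61), eol-1 (-1.72), C09B8.4 (-1.86), B0205.13 (-1.86), vit-3 (-1.89), vit-4 (-1.90), B0507.8 (-1.90), chca-1 (-1.91), F53F1.4 (-2.12), nas-3 (-2.77) and acdh-2 (-4.29). They were taken from the genes with the largest changes or interactions and from the myosin network, so that their number follows from that choice.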

How the results depend on the processing

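For light with ATR, ERCC scaling gave 2312 called genes in place of 4169, and leaving out each library in turn gave 3244 to 3948, the lowest without dark_plusATR replicate 3. DESeq2 shared 3925 calls with edgeR, library totals 3147 and ERCC scaling 2310. For light without ATR, the count of 0 became 177 with DESeq2, 2 with library totals, 3 with ERCC scaling and 4 without the filter, and ranged from 0 to 9 with single libraries left out (3 without light_minusATR replicate 2 and 9 without dark_minusATR replicate 1). For the interaction, ERCC scaling gave 420 in place of 787, and leaving out libraries gave 646 to 787. Of the alternatives for named genes 2704 kept direction and side of the threshold, 63 lost the call, 6 gained it and 2 changed sign, namely chn-1 (0.0241) and unc-45 (0.0527) under library totals, neither of which was called. The cause of these changes was not tested. Genes of low counts are limited by depth.

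No clear pairing by replicate number was seen between light_plusATR and dark_plusATR. The correlations of same-numbered deviations were 0.026, -0.078, 0.25 and -0.238 over 8180 genes, and only replicate 3 correlated best with its own number. This check covered only these groups and does not exclude a pairing. With the number as a replicate block, 4506 genes were called for light with ATR, 0 without ATR and 1062 for the interaction.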

Other observations

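Among families grouped by name after their values were seen, 9 of 23 acyl-CoA synthetase (acs) genes rose and 2 fell in light_plusATR against dark_plusATR (median 0.118, log2). Of 27 astacin protease (nas) genes 5 rose and 2 fell, from -2.75 to 0.93. The nas counts were near the shares of all genes tested, 16.16% higher and 11.55% lower. Of 11 tubulin genes none rose and 4 fell, with a median of -0.141. By chromosome, the share of tested genes called higher was 20.7% on IV and between 13.2% and 16.6% on the others, and the share called lower ran from 9.5% on II to 13.3% on X. None of 14 genes of the mitochondrial genome was called in either direction.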
